A study of Arabidopsis thaliana with 12 samples.

Results

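Among 14407 nuclear genes with at least 5 TPM in wild-type seedlings, 1039 met a limit for being lower in the h3.3kd;h2a.z double mutant. Of these, 89, called the members, stayed above a lower limit in each single mutant. Some of the 89 were above the wild-type level there. TPM is transcript abundance corrected for gene length and scaled to a fixed library total. The members were chosen on group means, with d = log2((group mean + 1)/(Col mean + 1)). The rule asks for a Col mean of at least 5 TPM, d of at most -0.8 in the double mutant, and d above -0.4 in h3.3kd and in h2a.z. The set includes vacuolar proteases, cell wall and secreted proteins, genes of abscisic acid and dehydration responses, amino acid transporters, detoxifying enzymes and a group of regulators. The lowest members were DELTA-VPE, a vacuolar protease gene at 12.4% of its Col mean in the double mutant, AT3G16670, annotated as an extensin-like protein, at 16.2%, and UMAMIT25, a transporter gene, at 16.4%.

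RNA was sequenced from whole Arabidopsis thaliana seedlings, 7 days old, kept in short days at 21 °C, with 3 libraries in each of 4 groups. The mutant genotypes were h3.3kd;h2a.z, labelled h3.3kd-1;h2a.z and called the double mutant, h3.3kd, which is the line h3.3kd-1 with histone H3.3 knocked down, and h2a.z, mutated for H2A.Z. Col is the wild type they were set against, and the double mutant joins the knockdown to the H2A.Z mutations. No treatment separates the groups. Alleles and the method of the knockdown are not given in the labels used. Separate growths are not stated for libraries of 1 group, and p-values therefore cover the spread between these libraries alone.

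DNA in a nucleosome is wrapped around histones, and variant histones replace the common ones at particular places. H3.3 is put into chromatin outside DNA replication, mostly over the bodies and ends of transcribed genes, while H2A.Z is put in by the SWR1 complex, mostly at the start of genes and over the bodies of genes that respond to the environment. In Arabidopsis H2A.Z is known both for holding such genes inactive and for their proper induction, so the combination of both losses asks which genes keep their level with either variant reduced but not with both reduced.

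The targeted transcripts were read before the members as a check of the labels. HTR4, an H3.3 gene, had 35.4 ± 5.24 TPM in the double mutant, 36.2 ± 1.73 TPM in h3.3kd, 350.5 ± 9.61 TPM in h2a.z and 386 ± 3.41 TPM in Col (SD, n = 3 in each group, as for all means below). HTR8, another H3.3 gene, had 10.2 ± 2.63 TPM in the double mutant, 12.8 ± 0.846 TPM in h3.3kd, 176 ± 10.02 TPM in h2a.z and 187 ± 4.35 TPM in Col. HTR5, the remaining H3.3 gene of the check, was reduced far less, with 186 ± 17.2 TPM in the double mutant, 207 ± 1.998 TPM in h3.3kd, 232 ± 9.46 TPM in h2a.z and 249.9 ± 12 TPM in Col. Of the H2A.Z genes, HTA8 had 0.0331 ± 0.0573 TPM in the double mutant, 8.47 ± 1.13 TPM in h3.3kd, 0.0746 ± 0.129 TPM in h2a.z and 9.2 ± 0.369 TPM in Col. HTA11 had 1.69 ± 0.184 TPM in the double mutant, 22.6 ± 3.24 TPM in h3.3kd, 2.86 ± 0.425 TPM in h2a.z and 24.4 ± 1.25 TPM in Col. HTA9, the most abundant, had 60.5 ± 6.998 TPM in the double mutant, 126 ± 2.31 TPM in h3.3kd, 32.8 ± 4.06 TPM in h2a.z and 161 ± 8.5 TPM in Col. The double mutant thus kept more HTA9 transcript than h2a.z did, and neither line was without H3.3 or H2A.Z transcripts. Estimated depth, read from the whole-read steps of low values, came to about 4830000 reads for h2a.z replicate 1 and about 18300000 to 28200000 for the others. Across genes, which are not independent replicates, Pearson r of log2 values was 0.990 to 0.997 within a genotype and 0.963 to 0.986 between genotypes. Summed TPM of 19 photosynthesis genes was 93288 to 108097 in the double mutant, 112139 to 116371 in h3.3kd, 77536 to 87005 in h2a.z and 90604 to 97448 in Col. The 11 root and root hair markers summed to 194 to 249, 184 to 193, 223 to 255 and 153 to 169 TPM in the same order of groups. The 13 seed maturation genes summed to 107 to 269 TPM in the double mutant, 101 to 136 in h3.3kd, 24.2 to 272 in h2a.z and 48.6 to 68.8 in Col. The 12 cell cycle genes summed to 88.2 to 151, 118 to 138, 146 to 181 and 127 to 137 TPM. No gene of these 4 lists was at 0 in all libraries of a group. These tissue sums moved between genotypes, and their part in the levels of the members was not tested. In whole seedlings, fewer cells of a type and less RNA per cell cannot be told apart.

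Of the 14407 genes, 1039 (7.21%) met the limit of -0.8 in the double mutant. The 89 members are 8.57% of these 1039. Another 440 (42.3%) were at or below -0.4 in h3.3kd but not in h2a.z, 226 (21.8%) in h2a.z but not in h3.3kd, and 284 (27.3%) in both single mutants. Most genes lowered in the double mutant were thus also lower in at least 1 single mutant, and the members are the smallest of the 4 classes. Their d in the double mutant ran from -2.597 to -0.80 with a median of -0.92, against a median of -0.08 over the 14407 genes. Most lay close to the limit: 59 were between -1 and -0.8, 30 at -1 or below, and 2, DELTA-VPE and AT3G16670, at -2 or below. In TPM the double mutant held 12.4% to 56.5% of the Col mean, with a median of 48.6%. Col means ran from 5.14 to 664 TPM with a median of 15.1, and 28 members had a Col mean below 10 TPM while 12 had 50 TPM or more.

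The single mutants were not all at the Col level. In h3.3kd the members' d ran from -0.40 to 0.39 with a median of -0.26 (-0.12 over the 14407 genes), and 77 of 89 were below 0. In h2a.z it ran from -0.40 to 0.89 with a median of -0.08 (0.04 over all), with 53 below 0 and 36 above. Both single mutants were within 0.2 of Col for only 12 members: DELTA-VPE, AT2G39530, AT5G46900, RD29B, AT4G33610, MKK9, LTI30, BETA-VPE, AT4G15830, GSTU24, AT5G38940 and FAAH. At the other end, 46 members had at least 1 single mutant below -0.3 and 5 had both. A linear model across all genes (limma on log2(TPM + 1), Benjamini-Hochberg adjusted p below 0.05) called 28 of the members lower and 1 higher in h3.3kd, where 26.7% of the 18851 genes tested were called lower and 9.12% higher. In h2a.z it called 16 members lower and 11 higher, with 18.3% and 28.9% of all genes. Against Col it called all 89 lower in the double mutant, with 30.7% of all genes called lower and 20.3% higher, and it called 58 of the 89 lower for the interaction, with 10.1% lower and 7.39% higher. The rule used the same contrasts, so the counts only describe the members. Being above the limit of -0.4 does not mean unchanged, and the rule sets no upper limit in the single mutants. With TPM rescaled by median ratios, the h3.3kd calls over all genes were 3123 lower and 3244 higher, in place of 5042 and 1720.

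**Figure D1:**
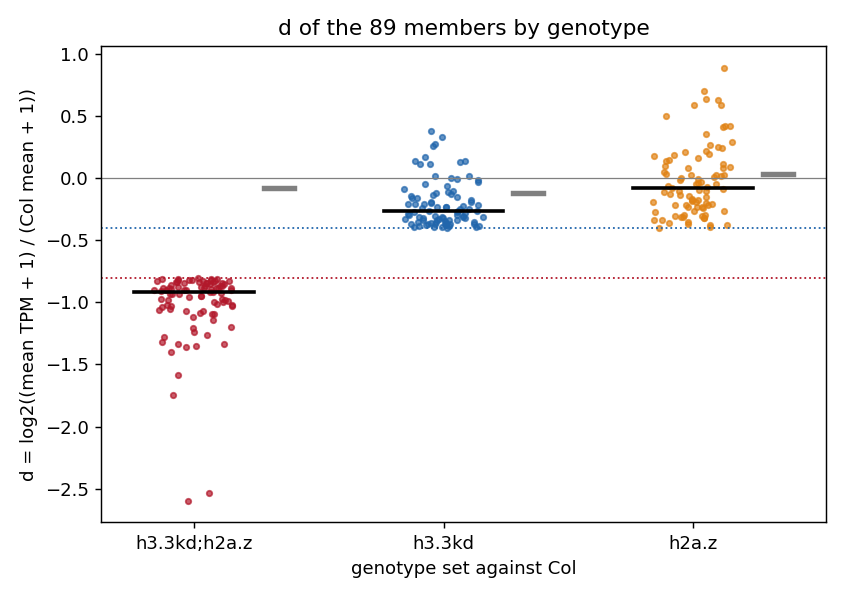
Each point is 1 of the 89 members, placed by its d (log2 of mean TPM + 1 against Col) in the double mutant, h3.3kd and h2a.z; black lines are the members' medians (-0.92, -0.26 and -0.08), short grey lines the medians over 14407 nuclear genes, and dotted lines the limits of the rule. The h3.3kd points crowd just above -0.4, while the h2a.z points spread up to 0.89.

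The libraries of a group held together for most members. All 3 double mutant libraries were below all 3 Col libraries for 87 members (36.2% of the 14407 genes), below all 3 h3.3kd libraries for 87 (20.2%) and below all 3 h2a.z libraries for 85 (35.8%). They were below the other 9 libraries for 84 members, against 8.4% of the 14407 genes. The means behind the rule make such gaps likely, so the counts only describe the members. Of the 5 exceptions, AT2G41082 and AT1G53541 rest on few reads, about 23.3 and 12.2 over the 3 double mutant libraries, and in the remaining 3, PP2-A8, AT4G15830 and AT2G28870, 1 h2a.z library was below the highest double mutant library. An estimated 36 members had under 50 reads in h2a.z replicate 1, and 20 had under 50 in the lowest double mutant library.

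By the rule itself, the sum of both single effects was less negative than the double mutant for every member. The sum of d in h3.3kd and h2a.z ran from -0.74 to 0.88 with a median of -0.29, and the double mutant lay below that sum by a median of 0.66 on the log2 scale (departures from -3.08 to -0.19, median -0.66; 0.01 over the 14407 genes). The rule favours such departures, since it bounds both single mutants from below. The departure was -0.4 or lower in 73 members (10.3% of the 14407 genes) and above -0.4 in 16, among them bZIP44, AIB, GSTU1, TK1a, FAS1, SIGE and AT1G54410, for which mild reductions in both single mutants came closest to adding up to the double mutant level.

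**Figure D2:**
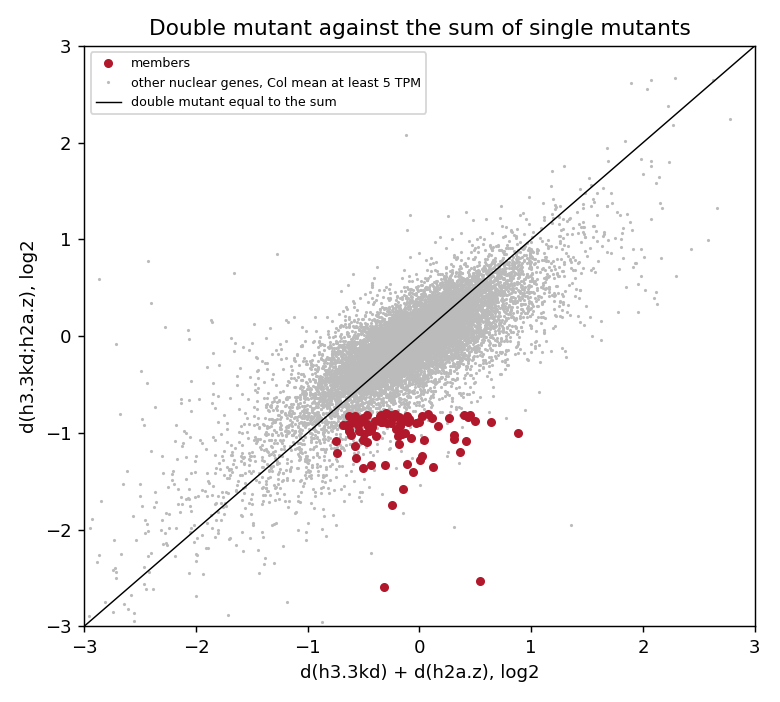
The horizontal axis is the sum of d in h3.3kd and in h2a.z and the vertical axis is d in the double mutant, both log2; red points are the 89 members, grey points the other nuclear genes with a Col mean of at least 5 TPM, and the line marks a double mutant equal to the sum. All members lie below the line, which the rule fixes, and DELTA-VPE and AT3G16670 lie near -2.5 on the vertical axis, apart from the rest.

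Vacuolar processing enzymes are cysteine proteases that mature other vacuolar proteins and take part in programmed cell death. The delta enzyme is known from the inner seed coat and the beta enzyme from seed protein storage. DELTA-VPE (AT3G20210) had 2.33, 2.49 and 2.76 TPM in double mutant seedlings, 21.1, 20.2 and 13.2 TPM in h3.3kd, 16.9, 19.2 and 18 TPM in h2a.z, and 26.1, 17.5 and 17.5 TPM in Col. The double mutant libraries lay close together and far below the other 9, which overlapped one another, and Col replicate 1 was the highest of all. Its d was -2.597 in the double mutant and -0.16 in each single mutant, and without Col replicate 1 the double mutant value was -2.39. BETA-VPE (AT1G62710) had 12.4, 11.1 and 10.4 TPM in double mutant seedlings, 25, 23.7 and 20.1 TPM in h3.3kd, 19.1, 21.4 and 22.5 TPM in h2a.z, and 23, 19.8 and 20.6 TPM in Col, so its double mutant libraries again stood alone at the bottom while both single mutants overlapped Col. The other 2 genes of the family, which are no members, did not pass the test in the double mutant. GAMMA-VPE, the main vegetative enzyme gene, had 78.9 ± 4.27 TPM in the double mutant against 87.5 ± 4.92 TPM in Col (log2 -0.15, SE 0.09, adjusted p = 0.17, limma). ALPHA-VPE had 2.93 ± 0.196 TPM in the double mutant against 2.21 ± 0.274 TPM in Col (log2 0.29, SE 0.13, adjusted p = 0.0661, limma). It was called higher in h2a.z, at 3.69 ± 0.638 TPM (log2 0.54, SE 0.13, adjusted p = 0.00285, limma).

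**Figure D3:**
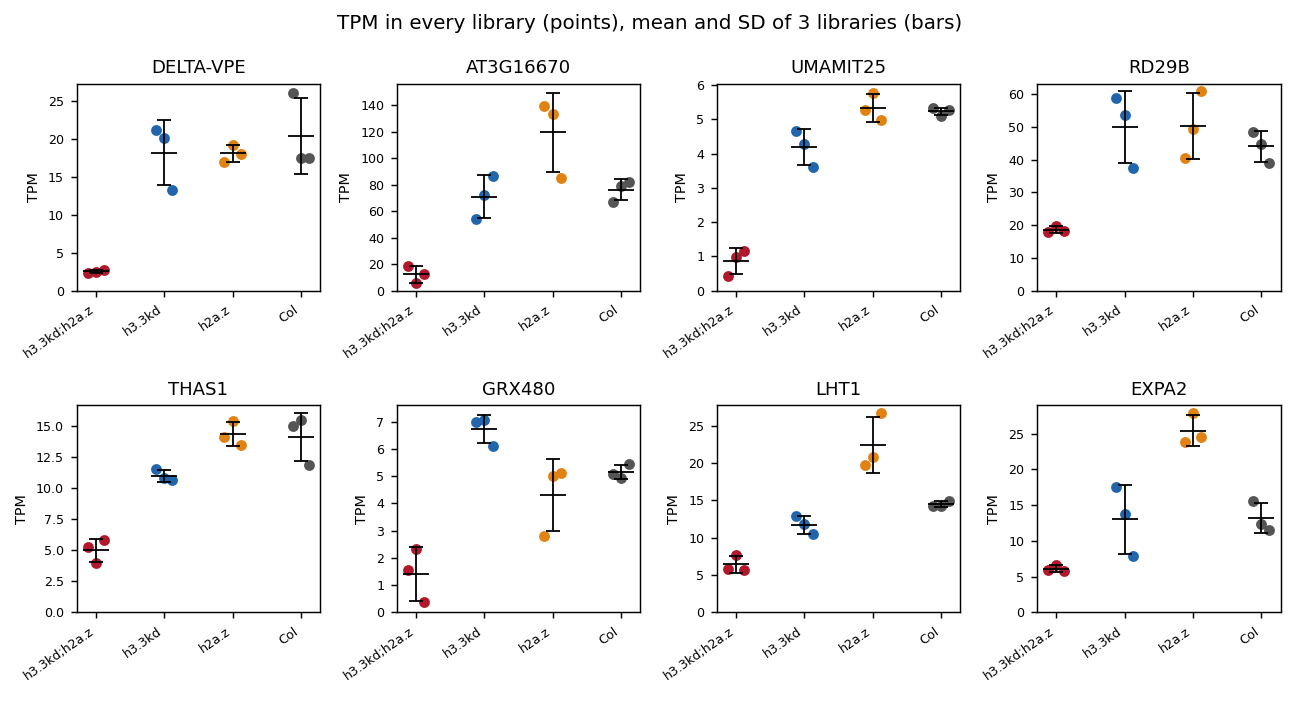
TPM of 8 members in every library (points), with the mean and SD of the 3 libraries of each genotype (bars), for DELTA-VPE, AT3G16670, UMAMIT25, RD29B, THAS1, GRX480, LHT1 and EXPA2. In each panel the 3 double mutant points are the lowest; AT3G16670, LHT1 and EXPA2 also show h2a.z above Col.

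Several members encode secreted and cell wall proteins. AT3G16670, annotated as a pollen Ole e 1 allergen and extensin family protein, had 18.6, 5.54 and 12.8 TPM in double mutant seedlings, 54, 72.4 and 86.6 TPM in h3.3kd, 139, 134 and 85.3 TPM in h2a.z, and 67.1, 79.1 and 82.3 TPM in Col. Every h2a.z library was above every Col library and every double mutant library was far below both, and h3.3kd overlapped Col. GH9B8 (AT2G32990), of the glycosyl hydrolase family 9 that cuts cellulose-like glucans, had 20.3, 18.6 and 19.9 TPM in double mutant seedlings, 39.1, 38.5 and 37.6 TPM in h3.3kd, 57.7, 61.7 and 63.6 TPM in h2a.z, and 53.4, 49.7 and 48.1 TPM in Col. Here too h2a.z was above Col and the double mutant lowest, and h3.3kd lay below Col, without overlap between any of the 4 groups. EXPA2 (AT5G05290), an expansin that loosens the wall, had 5.96, 6.63 and 5.73 TPM in double mutant seedlings, 17.5, 13.8 and 7.88 TPM in h3.3kd, 23.8, 27.8 and 24.5 TPM in h2a.z, and 15.6, 12.4 and 11.6 TPM in Col. Here h2a.z was above all other libraries, h3.3kd spread across and beyond the range of Col, and d was -1.0 in the double mutant against -0.02 in h3.3kd and 0.89 in h2a.z, the highest h2a.z value of the set. AT4G11190, a dirigent-like protein of the family that guides the coupling of lignan precursors, had 5.9 ± 1.53 TPM in the double mutant, 21.4 ± 0.719 TPM in h3.3kd, 16.2 ± 3.87 TPM in h2a.z and 19.7 ± 2.99 TPM in Col. AT4G25900, annotated as similar to galactose mutarotase, had 11.3 ± 1.08 TPM in the double mutant, 26.4 ± 1.34 TPM in h3.3kd, 24.5 ± 1.72 TPM in h2a.z and 30.5 ± 1.23 TPM in Col. AGP41, an arabinogalactan protein of the cell surface, had 9.72 ± 0.931 TPM in the double mutant, 21 ± 0.983 TPM in h3.3kd, 15.1 ± 2.501 TPM in h2a.z and 19 ± 0.8 TPM in Col.

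On the list of wall expansion and cellulose genes, which holds EXPA2, 9 of 18 tested genes were called lower in the double mutant and 2 higher (medians -0.19 for the list and -0.07 for all genes tested). On the same list 5 were called lower and 3 higher in h3.3kd, and 4 lower and 5 higher in h2a.z. Of all genes tested, 30.7% were called lower and 20.3% higher in the double mutant. The shares were 26.7% and 9.12% in h3.3kd, and 18.3% and 28.9% in h2a.z. The non-members of this list with the largest calls followed other patterns. XTR6, a xyloglucan-modifying enzyme gene, had 3.02 ± 0.209 TPM in the double mutant, 9.56 ± 1.19 TPM in h3.3kd, 4.29 ± 0.543 TPM in h2a.z and 10.7 ± 1.54 TPM in Col and was called lower in the double mutant (log2 -1.54, SE 0.12, adjusted p = 1.09e-07) and in h2a.z (log2 -1.15, SE 0.12, adjusted p = 2.9e-06). XTH24, of the same enzyme family, had 136 ± 11.36 TPM in the double mutant, 136 ± 11.3 TPM in h3.3kd, 296 ± 24.4 TPM in h2a.z and 321 ± 16 TPM in Col, close to equal in the double mutant and h3.3kd. EXPA3 and the cellulose synthase gene CESA6 were likewise called lower in the double mutant (log2 -0.83, SE 0.08, adjusted p = 1.44e-06 and log2 -0.75, SE 0.06, adjusted p = 2.13e-07) and in h3.3kd (log2 -0.64, SE 0.08, adjusted p = 4.6e-05 and log2 -0.69, SE 0.06, adjusted p = 1.41e-06).

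Small secreted proteins of the lipid-transfer and 2S albumin-like class gave 3 members. AT5G46900 had 19.3, 12.1 and 17.5 TPM in double mutant seedlings, 34.2, 39 and 35.3 TPM in h3.3kd, 44, 45.2 and 50.8 TPM in h2a.z, and 37.3, 50.3 and 35.5 TPM in Col. Its neighbour AT5G46890 had 46.4 ± 11.7 TPM in the double mutant, 79.7 ± 1.48 TPM in h3.3kd, 100.3 ± 6.43 TPM in h2a.z and 93.7 ± 6.15 TPM in Col. Both were lowest in the double mutant with no overlap, and h2a.z lay near or above Col. The transcripts of the pair are 94.5% identical over 526 bases, so reads can be shared between them and their values are not separate evidence. AT5G48490, the remaining lipid-transfer member, had 6.59 ± 1.95 TPM in the double mutant, 13.9 ± 1.2 TPM in h3.3kd, 20.9 ± 8.07 TPM in h2a.z and 16.9 ± 1.73 TPM in Col, with wide spread in h2a.z. Of the other 43 tested genes of the class, 25 were called lower in the double mutant and 5 higher, where 30.7% of all genes tested were called lower and 20.3% higher. Of the other 44 tested genes of the annotated peroxidase superfamily, 11 were called lower and 16 higher. Its members AT1G68850 (6.91 ± 0.339 TPM in the double mutant against 15.1 ± 1.67 TPM in Col) and AT5G14130 (7.44 ± 1.262 TPM in the double mutant against 14.7 ± 2.4 TPM in Col) carry that annotation, as does DOX1, which is described with the enzymes. For AT1G68850 d was -0.39 in h3.3kd and -0.23 in h2a.z, and for AT5G14130 it was -0.15 and -0.39.

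Genes of water deficit and of the hormone abscisic acid, which rises in dry or salty conditions and in maturing seeds, are described together next. Of the members, only RD29B and LTI30 are on the abscisic acid, cold and drought list used below. RD29B (AT5G52300), a classic abscisic acid-induced gene of dehydration, had 17.9, 19.9 and 18.22 TPM in double mutant seedlings, 58.8, 53.8 and 37.6 TPM in h3.3kd, 40.7, 49.5 and 60.9 TPM in h2a.z, and 48.6, 44.8 and 39.1 TPM in Col. The double mutant libraries lay close together and below all others, while both single mutants overlapped Col and had slightly higher means (d of -1.20 in the double mutant, 0.18 in h3.3kd and 0.19 in h2a.z). LTI30 (AT3G50970), a dehydrin, which is a hydrophilic protein that protects membranes in cold and drought, had 147, 110.0 and 110.2 TPM in double mutant seedlings, 224, 209.6 and 202 TPM in h3.3kd, 202, 191 and 217 TPM in h2a.z, and 204, 236 and 248 TPM in Col. The double mutant was again separate from the other 9 libraries, and its replicate 1 was nearer to them than replicates 2 and 3. The dehydrin AT1G54410, the most abundant member, had 421, 346 and 349.9 TPM in double mutant seedlings, 503, 497 and 534 TPM in h3.3kd, 612, 538 and 547 TPM in h2a.z, and 672, 647 and 673 TPM in Col, with the groups in the order double mutant, h3.3kd, h2a.z, Col and no overlap. BGLU18, a glucosidase that frees abscisic acid from its glucose ester, had 15.3 ± 6.11 TPM in the double mutant, 24.2 ± 0.995 TPM in h3.3kd, 28.2 ± 3.86 TPM in h2a.z and 30.4 ± 1.72 TPM in Col. AIB, a helix-loop-helix factor that restrains jasmonate responses, had 12.1 ± 0.934 TPM in the double mutant, 18.8 ± 0.0626 TPM in h3.3kd, 18.5 ± 0.71 TPM in h2a.z and 23.7 ± 1.06 TPM in Col. SOM, a zinc finger protein that holds back seed germination in the dark, had 9.7 ± 0.858 TPM in the double mutant, 15.5 ± 2.06 TPM in h3.3kd, 16.6 ± 2.84 TPM in h2a.z and 19 ± 1.18 TPM in Col.

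The stretches before the annotated starts of RD29B and LTI30 are shown because both genes are textbook targets of factors that bind short elements there, and that of DELTA-VPE because it is the lowest member. Sequences are 250 bases on the plus strand of the TAIR10.1 assembly (RefSeq), at chr5:21236771-21237020 for RD29B, chr3:18940393-18940642 for LTI30 and chr3:7052097-7052346 for DELTA-VPE. Capitals mark the abscisic acid response element ACGTGNC, the drought and cold element ACCGAC or GCCGAC (DRE), the G-box CACGTG and the TATA motif TATAAA, on either strand.
RD29B: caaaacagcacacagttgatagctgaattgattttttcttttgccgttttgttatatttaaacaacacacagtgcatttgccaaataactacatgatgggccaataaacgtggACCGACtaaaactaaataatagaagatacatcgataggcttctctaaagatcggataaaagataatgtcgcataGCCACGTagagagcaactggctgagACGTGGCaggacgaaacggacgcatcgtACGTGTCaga
LTI30: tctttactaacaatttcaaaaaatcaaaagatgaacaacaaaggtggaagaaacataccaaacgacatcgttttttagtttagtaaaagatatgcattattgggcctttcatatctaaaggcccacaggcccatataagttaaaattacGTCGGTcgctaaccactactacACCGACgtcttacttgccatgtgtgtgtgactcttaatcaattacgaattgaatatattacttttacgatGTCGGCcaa
DELTA-VPE: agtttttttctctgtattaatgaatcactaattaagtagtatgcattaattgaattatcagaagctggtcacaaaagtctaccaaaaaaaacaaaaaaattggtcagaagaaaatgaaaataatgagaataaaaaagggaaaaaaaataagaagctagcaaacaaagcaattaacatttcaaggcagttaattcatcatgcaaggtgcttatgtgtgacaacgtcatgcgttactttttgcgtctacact
RD29B shows 3 abscisic acid response elements and 1 DRE, LTI30 shows 3 DRE, and DELTA-VPE shows none of these 4 motifs. In windows of 250 bases before to 50 after the start, the abscisic acid response element was in 4.49% of the 89 members, 12.8% of the other 950 genes lowered in the double mutant and 12.3% of 14406 expressed genes with a window. The DRE was in 8.99%, 9.26% and 10.1% of the same sets. The G-box, which can overlap the abscisic acid response element, was in 6.74%, 11.1% and 9.42%. The W-box (TTGACC or TTGACT), bound by WRKY factors, was in 32.6%, 33.5% and 31.7%, and TATAAA in 58.4%, 59.5% and 51.2%. The evening element AAATATCT was in 8.99%, 7.37% and 5.95%, and the heat shock element GAANNTTC in 10.1%, 12.3% and 11%. The site II motif TGGGCC, common before genes of growth and translation, was in 7.87% of the members and 8.32% of the other lowered genes, against 20.4% of expressed genes, so its low share is common to genes lowered in the double mutant. The telo-box AAACCCTA (3.37%, 3.89% and 5.5%) and the repeat GAGAGAGA (4.49%, 7.26% and 8.32%) were scarce throughout. Median GC content of the windows was 30.0% in the members, 30.7% in the other lowered genes and 32.0% in expressed genes. These shares are descriptions, and a match is a string of letters, not a bound site.

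Among 27 tested genes of the abscisic acid, cold and drought list, which holds RD29B and LTI30, 18 were called lower and 2 higher in the double mutant, with a median log2 fold change of -0.62 against -0.07 for all genes tested. In h3.3kd 17 were called lower and 1 higher, in h2a.z 3 lower and 9 higher, and for the interaction 8 lower and 1 higher. The shares of all genes tested called lower and higher were 30.7% and 20.3% in the double mutant and 26.7% and 9.12% in h3.3kd. They were 18.3% and 28.9% in h2a.z, and 10.1% and 7.39% for the interaction. KIN1, a cold-induced gene, had 9.22 ± 1.71 TPM in the double mutant, 14.2 ± 1.001 TPM in h3.3kd, 55.4 ± 5.47 TPM in h2a.z and 40.6 ± 3.63 TPM in Col, and its double mutant level was below the sum of the single effects (interaction log2 -1.02, SE 0.16, adjusted p = 0.000587, limma). COR6.6, its close neighbour and copy, with which it may share reads, had 96.9 ± 10.9 TPM in the double mutant, 195 ± 5.59 TPM in h3.3kd, 273 ± 45.3 TPM in h2a.z and 324 ± 28.1 TPM in Col (interaction log2 -0.75, SE 0.15, adjusted p = 0.00344). The dehydrin gene RAB18 had 40.8 ± 8.37 TPM in the double mutant, 107 ± 19 TPM in h3.3kd, 38.5 ± 14.5 TPM in h2a.z and 133 ± 4.78 TPM in Col, low wherever H2A.Z was mutated. HAI1, a phosphatase of abscisic acid signalling, had 7.68 ± 1.09 TPM in the double mutant, 7.85 ± 1.36 TPM in h3.3kd, 20.8 ± 6.19 TPM in h2a.z and 20.6 ± 4.54 TPM in Col, low wherever H3.3 was knocked down. Interactions of RAB18 (adjusted p = 0.279) and HAI1 (adjusted p = 0.964) did not pass the test. Of the 7 tested dehydrin genes that are no members, 5 were called lower in the double mutant and none higher. Apart from the targeted genes, the other 20 lists of pathway genes hold no member. Of the 354 listed genes, at any Col level, 3 are members, where members are 0.62% of the 14407 genes.

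**Figure D4:**
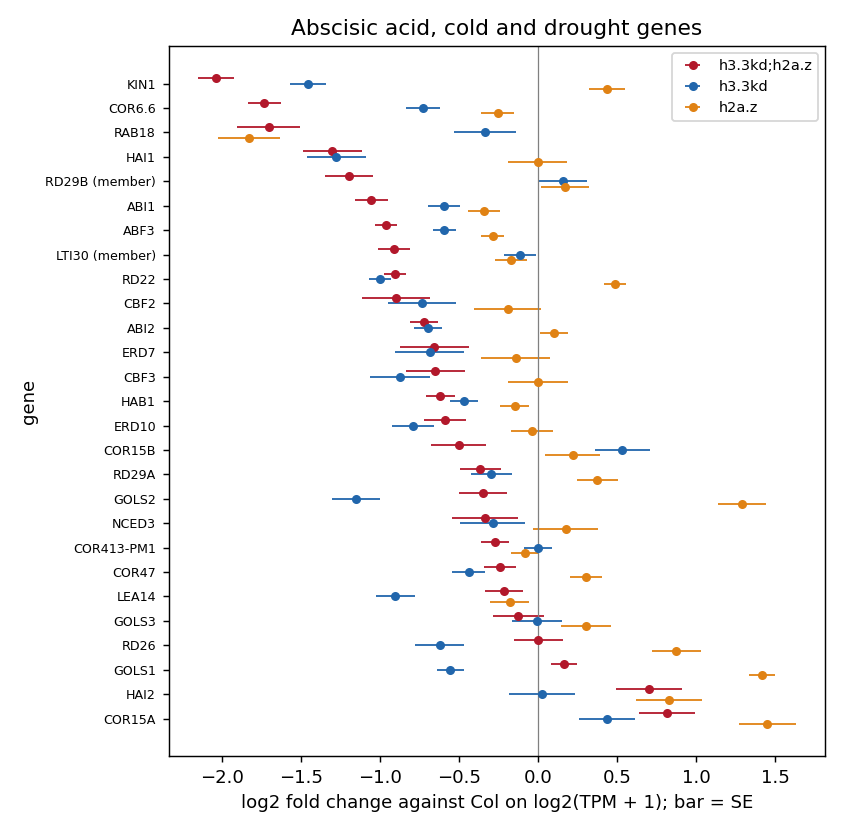
Log2 fold change against Col on the log2(TPM + 1) scale, with its SE, of the 27 tested abscisic acid, cold and drought genes in the double mutant, h3.3kd and h2a.z. RD29B and LTI30, marked as members, have single mutant points near 0, while KIN1, HAI1 and RD22 are low in the double mutant and in h3.3kd. All 3 mutants are set against the same Col libraries.

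Transporters of amino acids gave 3 members. UMAMIT25 (AT1G09380), of a family that releases amino acids from cells, had 0.437, 0.992 and 1.15 TPM in double mutant seedlings, 4.66, 4.27 and 3.61 TPM in h3.3kd, 5.26, 5.77 and 4.97 TPM in h2a.z, and 5.32, 5.11 and 5.26 TPM in Col. The double mutant value rests on about 54.8 reads over 3 libraries, and the other 9 libraries were all higher. LHT1 (AT5G40780), which takes up lysine, histidine and other amino acids, had 5.82, 7.74 and 5.69 TPM in double mutant seedlings, 12.9, 11.9 and 10.5 TPM in h3.3kd, 19.7, 20.8 and 26.6 TPM in h2a.z, and 14.3, 14.3 and 14.9 TPM in Col. The 4 groups did not overlap, with h2a.z above Col and h3.3kd below it (d of -1.06 in the double mutant, -0.28 in h3.3kd and 0.60 in h2a.z). CAT3, a cationic amino acid transporter, had 9.36 ± 1.07 TPM in the double mutant, 17.2 ± 1.7 TPM in h3.3kd, 16.1 ± 1.01 TPM in h2a.z and 19.97 ± 1.56 TPM in Col. Of the other 51 tested genes of the annotated transporter families, 23 were called lower in the double mutant and 6 higher. The shares of all genes tested were 30.7% and 20.3%.

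Enzymes of specialised metabolism and detoxification were the next group. THAS1 (AT5G48010), which makes the root triterpene thalianol, had 5.22, 3.93 and 5.8 TPM in double mutant seedlings, 11.5, 10.8 and 10.6 TPM in h3.3kd, 14.1, 15.4 and 13.5 TPM in h2a.z, and 15, 15.5 and 11.9 TPM in Col. Its double mutant libraries were below all others and its h2a.z libraries overlapped Col. The next genes of the thalianol pathway lie beside it and are no members because their d in h3.3kd was just past -0.4. CYP708A2 had 3.27 ± 0.702 TPM in the double mutant, 7.81 ± 0.327 TPM in h3.3kd, 10.4 ± 1.85 TPM in h2a.z and 10.9 ± 2.24 TPM in Col (interaction log2 -1.0, SE 0.22, adjusted p = 0.00655). CYP705A5 had 18.5 ± 2.18 TPM in the double mutant, 29.9 ± 3.65 TPM in h3.3kd, 47.1 ± 5.19 TPM in h2a.z and 40.4 ± 5.56 TPM in Col (interaction log2 -0.88, SE 0.17, adjusted p = 0.00247). AT5G47980, an acyltransferase-like gene of the cluster, was at 4.91 ± 0.551 TPM in the double mutant against 5.21 ± 1.65 TPM in Col and did not pass the test. Of the tau class of glutathione transferases, which attach glutathione to toxic compounds, GSTU1 had 29.9 ± 0.855 TPM in the double mutant against 56.8 ± 4.13 TPM in Col. GSTU28 had 11.5 ± 1.27 TPM in the double mutant against 22.1 ± 2.04 TPM in Col and GSTU24 had 37.8 ± 4.44 TPM in the double mutant against 66.9 ± 11.5 TPM in Col. In h3.3kd d was -0.30 for GSTU1, -0.33 for GSTU28 and -0.01 for GSTU24. In h2a.z it was -0.31, -0.07 and 0.09 in the same order. Of the other 19 tested genes of that class, 12 were called lower and none higher in the double mutant, 8 lower and 1 higher in h3.3kd, and 5 lower and 5 higher in h2a.z. The shares of all genes tested, in the same order, were 30.7% and 20.3%, 26.7% and 9.12%, and 18.3% and 28.9%.

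DOX1 (AT3G01420), an alpha-dioxygenase that oxidises fatty acids in defence, had 58.2, 63.1 and 72.6 TPM in double mutant seedlings, 197, 181 and 166 TPM in h3.3kd, 130.2, 147 and 148 TPM in h2a.z, and 124, 146 and 146 TPM in Col. Its h3.3kd libraries were the highest of all, its h2a.z libraries overlapped Col, and the double mutant was separate below. TAT7 (AT5G53970), a tyrosine aminotransferase that feeds tocopherol synthesis, had 91.3 ± 5.53 TPM in the double mutant, 143 ± 3.68 TPM in h3.3kd, 189 ± 6.02 TPM in h2a.z and 170.4 ± 11 TPM in Col. CYP72A14, a cytochrome P450, had 10.7 ± 0.239 TPM in the double mutant, 22.6 ± 0.0614 TPM in h3.3kd, 21.7 ± 0.497 TPM in h2a.z and 27.2 ± 0.886 TPM in Col, with little spread in any group. AT3G46490, a 2-oxoglutarate and iron-dependent oxygenase, had 2.64 ± 0.31 TPM in the double mutant, 5.51 ± 0.384 TPM in h3.3kd, 5.51 ± 0.188 TPM in h2a.z and 7.41 ± 0.365 TPM in Col. Here both single mutants were at -0.37, near the limit. GRX480 (AT1G28480), a glutaredoxin that binds TGA factors of salicylic acid signalling, had 1.54, 2.33 and 0.365 TPM in double mutant seedlings, 6.997, 7.07 and 6.12 TPM in h3.3kd, 2.79, 5.002 and 5.13 TPM in h2a.z, and 5.07, 4.94 and 5.43 TPM in Col. It was highest in h3.3kd, and its double mutant libraries spread widely on about 48.9 reads in all. Only 1 h2a.z library, the shallow replicate 1, was near them. AT2G39530, of the membrane protein family UPF0497, had 1.64 ± 0.772 TPM in the double mutant, 6.09 ± 0.746 TPM in h3.3kd, 5.59 ± 0.849 TPM in h2a.z and 5.98 ± 0.799 TPM in Col on about 59.4 double mutant reads. AT4G14650, without a known role, had 1.64 ± 0.296 TPM in the double mutant, 4.35 ± 0.439 TPM in h3.3kd, 5.11 ± 1.01 TPM in h2a.z and 5.65 ± 0.633 TPM in Col. BCA4, a carbonic anhydrase, kept the highest share of its Col mean among the members, 56.5%.

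**Figure D5:**
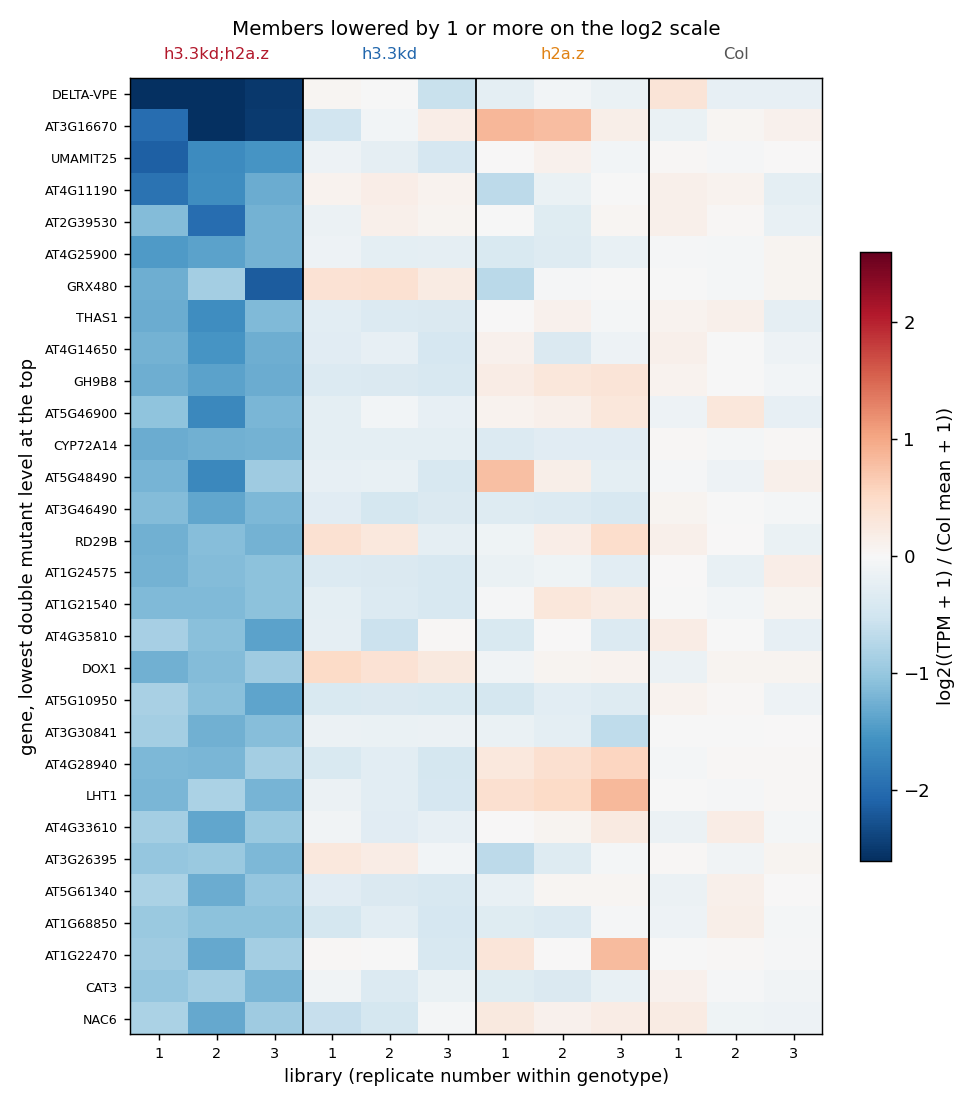
Rows are the 30 members at d of -1 or below, ordered from the lowest at the top; columns are the 12 libraries, and colour is log2 of (TPM + 1) over (Col mean + 1), from blue (lower) to red (higher). The 3 double mutant columns are blue in every row, and AT3G16670, LHT1, AT4G28940 and GH9B8 are among the rows that are red in all 3 h2a.z columns.

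Regulators of transcription and signalling were mostly of modest abundance and close to the limit. SIGE (AT5G24120), a sigma factor that directs the plastid RNA polymerase under light and stress, was the exception in abundance, with 197, 152 and 161 TPM in double mutant seedlings, 250.2, 242 and 240.4 TPM in h3.3kd, 265, 284 and 301 TPM in h2a.z, and 273, 315 and 353 TPM in Col. Double mutant libraries were below all others, the h3.3kd libraries overlapped neither Col nor the double mutant, and double mutant replicate 1 was the nearest to h3.3kd. NAC6, the NAC factor also known as ORE1, an activator of leaf senescence, had 2.57 ± 0.642 TPM in the double mutant, 4.62 ± 1.17 TPM in h3.3kd, 7.21 ± 0.393 TPM in h2a.z and 6.18 ± 1.01 TPM in Col. NAC047, of the same family, had 5.08 ± 0.766 TPM in the double mutant, 10.2 ± 0.66 TPM in h3.3kd, 12.4 ± 1.22 TPM in h2a.z and 10.6 ± 0.608 TPM in Col. RAV1, which restrains growth, had 3.07 ± 0.292 TPM in the double mutant, 7.996 ± 0.632 TPM in h3.3kd, 5.28 ± 0.657 TPM in h2a.z and 6.52 ± 1.37 TPM in Col, and both single mutants overlapped Col. SPL11, a squamosa promoter-binding factor of the age pathway, had 5.8 ± 0.539 TPM in the double mutant against 11.7 ± 1.42 TPM in Col. bZIP44, a leucine zipper factor, had 24.3 ± 3.9 TPM in the double mutant against 49.1 ± 6.19 TPM in Col. Among signalling genes, MKK9, a kinase upstream of stress-activated MAP kinases, had 3.38 ± 0.609 TPM in the double mutant against 7.37 ± 2.17 TPM in Col. EBF2, an F-box protein that removes the ethylene factor EIN3, had 26.9 ± 0.344 TPM in the double mutant against 48.5 ± 5.02 TPM in Col. IOS1, a receptor kinase of immunity, had 3.49 ± 0.815 TPM in the double mutant against 6.93 ± 0.994 TPM in Col. In h3.3kd d was -0.27 for SPL11, -0.36 for bZIP44, -0.20 for MKK9, -0.35 for EBF2 and -0.23 for IOS1. In h2a.z it was 0.01, -0.27, 0.03, 0.003 and -0.03 in the same order. ATGA2OX1, which inactivates gibberellin, had 7.63 ± 1.996 TPM in the double mutant, 14.3 ± 1.72 TPM in h3.3kd, 24.9 ± 1.1 TPM in h2a.z and 14.9 ± 1.96 TPM in Col. FAS1, the large subunit of chromatin assembly factor 1, which places H3.1 during replication, had 2.81 ± 0.679 TPM in the double mutant, 4.199 ± 0.252 TPM in h3.3kd, 5.27 ± 1.31 TPM in h2a.z and 5.72 ± 0.438 TPM in Col. TK1a, a thymidine kinase that salvages DNA precursors, had 6.19 ± 0.536 TPM in the double mutant, 9.45 ± 0.522 TPM in h3.3kd, 10.1 ± 0.347 TPM in h2a.z and 12.6 ± 0.986 TPM in Col. AT2G28870, an inhibitor of cyclin-dependent kinases, had 2.66 ± 0.788 TPM in the double mutant, 4.14 ± 0.774 TPM in h3.3kd, 4.28 ± 1.27 TPM in h2a.z and 5.47 ± 0.31 TPM in Col. For FAS1, TK1a and AT2G28870 the departures from the sum of single effects were small (-0.35, -0.24 and -0.19). The summed level of the 12 cell cycle genes was 88.2, 96.5 and 151 TPM in the double mutant libraries, against 127 to 137 TPM in Col, so 2 of the 3 double mutant libraries were below Col and 1 was above it. Of these 12 genes, 3 were called lower in the double mutant and none higher (median log2 fold change -0.32), where 30.7% of all genes tested were called lower and 20.3% higher. The part of the cell cycle genes in the levels of FAS1, TK1a and AT2G28870 was not tested.

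A group within the members was higher than Col in h2a.z and lower than Col in the double mutant. In 10 members d in h2a.z was 0.4 or more, with EXPA2, ATGA2OX1, AT3G16670, SDR4 and LHT1 at 0.89, 0.70, 0.64, 0.63 and 0.60. None reached 0.4 in h3.3kd. In 13 members every h2a.z library was above every Col library and every double mutant library was below every h3.3kd library, a pattern found in 1.94% of the 14407 genes and one that the rule favours. By the sign of d, 32 members were below Col in h3.3kd and above it in h2a.z, 8 the reverse, 45 below it in both and 4 above it in both. The 14407 genes leaned the same way, with a median d of -0.12 in h3.3kd and 0.04 in h2a.z. Of all genes tested, 9.12% were called higher in h3.3kd and 28.9% in h2a.z. Shares of the 14407 genes were not counted for these signs or for d of 0.4 or more, so the counts only describe the members.

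The rule was also applied with 1 replicate number left out of every group, and the genes so chosen were read in the 4 libraries left out. With replicate 1 left out, 141 genes were chosen, and in replicate 1 their median d in the double mutant was -0.67. Of these, 134 were below 0 and 55 at -0.8 or below, against 55.7% of expressed genes below 0 and 6.92% at -0.8 or below. With replicate 2 left out 89 were chosen, with a median of -0.96 in replicate 2, 88 below 0 and 65 at -0.8 or below (57.0% and 8.01% of expressed genes). With replicate 3 left out 72 were chosen, with a median of -0.92 in replicate 3, all 72 below 0 and 47 at -0.8 or below (62.1% and 8.68%). A double mutant level below Col was thus also seen in libraries that had no part in the choice. Separate growths are not stated, so these libraries may not be independent of those used for the choice. The limit of -0.8 was met by only 55 of 141, 65 of 89 and 47 of 72. Both single mutants were above -0.4 in 77 of 141, 49 of 89 and 47 of 72 genes, and the whole rule was met in 25, 38 and 29. Shares of expressed genes were not counted for the single mutant condition or the whole rule, so these counts are descriptions. Of the 89 members, 68, 60 and 50 were among the genes so chosen. In double mutant replicate 1 the members were highest more often than in the others, in 50 of 89, and the same held over all expressed genes, where replicate 1 was highest for 55.2%. A core of 29 members met the rule under each single left-out library, among them DELTA-VPE, AT3G16670, UMAMIT25, GRX480, RD29B, LTI30, LHT1, EXPA2, CAT3, DOX1 and TAT7, and 28 of these also met it with TPM rescaled by median ratios.

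Values change little across the limit. FAAH, a hydrolase of fatty acid amides, AT5G38940, a germin-like protein, and GSTU24 were just inside, at -0.80, -0.81 and -0.81 in the double mutant, while AT5G28830 at -0.798, ATAUX2-11 at -0.79 and MCM5, a subunit of the replicative helicase, at -0.79 were just outside. BARD1, RAP2.6 and SELT, at -0.94, -1.08 and -1.32 in the double mutant, were left out by h3.3kd values of -0.41, -0.40 and -0.41. AT5G38940 shares 93.6% of 846 aligned bases with AT5G38930, so those genes can share reads.

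The members lie on all 5 chromosomes, with 28, 10, 15, 9 and 27 on chromosomes 1 to 5 (31.5%, 11.2%, 16.9%, 10.1% and 30.3%, against 25.9%, 15.2%, 20.1%, 15.3% and 23.5% of expressed genes). Apart from the adjacent pair AT5G46890 and AT5G46900, CHIA, a chitinase gene, AGP41 and SIGE follow each other on chromosome 5 with 1 listed gene between each. Median exonic length was 1519 bases in the members, 1796 in expressed genes and 1389 in the other lowered genes. In the annotation 10 members overlap another gene, 7 of them on the opposite strand, including DELTA-VPE, EXPA2 and EBF2. The share of expressed genes with such an overlap was not counted. Since the strand setting of the counting is not given, reads of such pairs cannot be told apart.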

How the data were processed

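RNA abundance was measured in 12 libraries, 3 for each of 4 genotypes, grouped by the labels. The authors deposited 1 table of TPM values, in which every column sums to 1000000, for 23893 genes (23739 nuclear). Per the submitters' processing notes the build was TAIR10, and the tools included HISAT2 (2.1.10), HTSeq (0.11.2), fastp (0.20.1) and DESeq2 (1.26.0), with no role or order given. How TPM was computed, how listed genes were chosen and whether counting used strand was not stated in the labels. TPM holds no total count; in 2123 low genes 94.8% of values were whole multiples of the value of 1 read within 0.02 steps, which gave the approximate depth. The number of reads limits precision most in h2a.z replicate 1.

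The rule was applied to group means with a pseudocount of 1. Tests were run in R 4.3.3 with limma 3.58.1, for log2(TPM + 1) of the 18851 genes whose mean was 1 TPM or more (all 89 members passed), with 4 groups, 8 residual degrees of freedom and a variance trend; they were two-sided, with Benjamini-Hochberg adjustment over all genes and a threshold of 0.05. Such fold changes understate those of low genes. The fit was also run on simulated data with independent noise and far fewer changed genes than were called here. That run does not check the calls in these data. No p-value is given for members, since the rule used the same contrasts, and comparisons against Col share the Col libraries. Symbols, products, lengths and sequences came from RefSeq TAIR10.1, in which all 89 members matched. Near copies were sought with blastn 2.17.0+ (90% identity or more over at least 100 bases).

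The members, the 23 gene lists and the tests were chosen with earlier results of these data known. The text names the 15 lowest members, the 5 with the highest Col mean, members on a list, the 3 genes on either side of the limit, the targeted genes and up to 4 called non-members of each list described. Other members and the annotated families were chosen after their values were seen. Alternatives were another scaling, pseudocounts of 0.5 and 2, other filters and limits, group medians, a replicate block and leaving out each library. The replicate numbers did not pair the libraries.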

Additional observations from a re-analysis of the deposited data

Results flagged for a closer look

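In 13 members the level moved in opposite directions with the H2A.Z mutations in the 2 backgrounds. The H2A.Z transcripts left were not equal in the 2, since the double mutant kept more HTA9 than h2a.z did. Every h2a.z library was above every Col library, and every double mutant library was below every h3.3kd library. The same held for 280 (1.94%) of the 14407 genes. For these members the difference was not tested, because the rule used the same values. The double mutant departed from the sum of the single effects by -3.08 for AT3G16670, -1.88 for EXPA2, -1.53 for ATGA2OX1, -1.38 for LHT1, -1.38 for SRG1, an oxygenase of senescing tissue, and -1.27 for AT1G77885. The departure was -1.21 for AT5G65660, a hydroxyproline-rich glycoprotein, -1.20 for GH9B8, -1.11 for AT4G28940, -1.11 for SDR4, a short-chain dehydrogenase, -0.87 for AT1G68470, an exostosin family protein, -0.72 for AT3G21680, and -0.66 for OTP70, a plastid RNA-processing protein.

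Of the described genes of the pathway lists, the thalianol cluster, the vacuolar processing enzymes and the targeted histone genes that are no members, leaving out MCM5, which was chosen for its place beside the limit, 6 passed the limma test of the interaction, which asks whether the effect of losing H2A.Z differs between the Col and h3.3kd backgrounds. The interaction was -1.02 for KIN1 (adjusted p = 0.000587), -0.75 for COR6.6 (adjusted p = 0.00344), -1.0 for CYP708A2 (adjusted p = 0.00655), -0.88 for CYP705A5 (adjusted p = 0.00247), -0.39 for RD22, a dehydration-induced gene (adjusted p = 0.0138), and 1.22 for HTA9 (adjusted p = 1.36e-05), on the log2(TPM + 1) scale. HTA9 is itself a targeted gene. Of all genes tested, 10.1% were called lower and 7.39% higher for the interaction.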

How the results depend on the processing

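The number of genes meeting the rule, 89, was 86 with rescaled TPM (55 of the members among them), 91 with a pseudocount of 0.5 (79) and 74 with 2 (63). It was 114 with a Col minimum of 2 TPM, 61 with 10, and 104 with group medians (65 of the members). It was 30 with a double mutant limit of -1 and 22 with a single mutant limit of -0.2. With 1 library left out it ran from 78 to 135, and the 135 came without double mutant replicate 1 (84 of the members among them). Leaving out replicate 1 of every group, chosen after seeing the data, gave 141. The cause of these shifts was not tested. For 24 named members, 199 of 216 double mutant values under the alternatives that can change them moved by less than 1 SD of the double mutant replicates, 17 moved further and none changed sign. Leaving out 1 of the 3 double mutant libraries can hardly move a value by 1 SD of those same libraries, so such values do not test stability. AT5G38940 moved from -0.81 to -1.14 without double mutant replicate 1 and was counted as within 1 SD.

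Rescaled TPM gave 3123 genes called lower and 3244 higher in h3.3kd, and moved the median of all genes from -0.11 to about 0. The count of abscisic acid, cold and drought genes called higher in the double mutant, 2, was 1 with a mean TPM of at least 5, and 1 to 2 with 1 library left out. The count of wall genes called higher there, 2, was also 1 to 2 with 1 library left out.

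The replicate numbers did not pair the libraries: of 18 correlations between same-numbered libraries none was over 0.1 (-0.17 to 0.08), and 1 of 12 libraries correlated best with its own number. With the replicate block, 5617 genes were called lower and 3726 higher in the double mutant, 4769 and 1636 in h3.3kd, and 3327 and 5311 in h2a.z, and 18 genes of the abscisic acid, cold and drought list and 9 wall genes were called lower. Depth limits members with few reads most, AT1G53541 above all.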
